A study of Arabidopsis thaliana with 6 samples.

Results

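The SAUR genes (SMALL AUXIN UP RNA) are the largest family of genes that auxin switches on within minutes in growing tissue. The 56 genes described here were taken by their AGI codes, the locus identifiers of *Arabidopsis thaliana*, out of 33316 genes counted in each library. The reference annotation names 78 genes with SAUR in the product, so 22 further genes of that annotation are not among the 56. Of the 56, 47 had at least 1 read in the 6 libraries and 9 had none. A total of 27 passed the filter on low counts and were tested, and 29 were not tested, 20 of which had reads.

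RNA came from the second internode of inflorescence stems of plants labelled 35S::Myc-GR-bdl, and all 6 libraries bear that label. The transgene expresses bdl, a stabilised form of the AUX/IAA repressor BODENLOS (BDL, also IAA12), fused to the glucocorticoid receptor (GR), under the viral 35S promoter that is active in most cell types. The fusion stays out of the nucleus until dexamethasone (Dex) is given, and then keeps AUXIN RESPONSE FACTORs (ARFs) from activating their targets. Plants of 15 to 20 cm, grown for 3 weeks in short days (8 h light) and then in long days (16 h light) at 21 °C, were dipped in a mock solution (Mock, 3 libraries) or 15 µM Dex (DEX, 3 libraries) and harvested after 3 h. Plants without the transgene were not analysed here, so a response to Dex itself and a response to nuclear bdl cannot be told apart. The source name of every sample gives the transgenic line, although the text on growth mentions WT (Col-0). The study's methods describe, for RNA preparation from second internodes, biological replicates of several plants each, whereas the labels do not say how replicates were made.

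SAUR proteins are small and short-lived. Members of the SAUR19 subfamily bind and inhibit PP2C.D phosphatases, which otherwise dephosphorylate the proton pumps of the plasma membrane (H+-ATPases), so that the wall is acidified and the cell expands. Other members respond to light, temperature, brassinosteroid, abscisic acid or senescence rather than to auxin alone, and many lie in tandem arrays of near-identical copies. Their transcripts are therefore used as a readout of auxin response, with the reservation that the family does not act as one.

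Total gene reads in genes with a name ranged from 30564459 to 37761257 per library, and reads on SAUR genes from 13985 to 25143. Levels are given as CPM, read counts relative to library size, after TMM scaling, a correction for differences in library composition. Where a gene had 0 reads, its level could be as high as 3 reads, which is 0.0773 to 0.0965 CPM per library or 0.0289 CPM for 3 libraries together. Such limits and intervals cover counting error only. Of the stem vascular markers, 6 of 6 had reads, with a summed level of 1450 to 1559 CPM in Mock and 1192 to 1487 CPM in DEX. Of these, 3 fell (*WOX4*, *ATHB8* and *NST3*) and 0 rose, beside 5.50% and 6.38% of all tested genes. *PXY* was lower and *APL* higher in every DEX library without a call (adjusted p = 0.189 and 0.0515, edgeR). *CESA7* was not called either (log2 fold change -0.016). Epidermis markers summed to between 10.7 and 12.7 CPM in all libraries, nearly all of it *ATML1*, with *PDF1* at 12 reads in all. Root hair markers had 0 reads in every library, and flower and seed markers stayed at or below 0.567 CPM. In these bulk samples fewer cells of a type and less RNA per cell cannot be told apart. Reads on BDL, which gene counts cannot divide between the transgene and the native gene, came to 1502 ± 473 CPM in Mock and 1461 ± 263 CPM in DEX (SD, n = 3 each; adjusted p = 0.952, edgeR).

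Reads of 50 bases cannot always be given to one SAUR gene. The following stretches of 60 coding bases from the *SAUR19* cluster on chromosome 5 are shown because they are why both total and unique reads were used. Capitals mark bases that differ from *SAUR24*.
SAUR24: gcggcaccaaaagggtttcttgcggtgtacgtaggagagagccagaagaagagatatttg
SAUR19: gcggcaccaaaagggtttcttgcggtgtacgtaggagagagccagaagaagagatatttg
SAUR21: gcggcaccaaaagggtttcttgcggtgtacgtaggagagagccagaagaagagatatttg
SAUR23: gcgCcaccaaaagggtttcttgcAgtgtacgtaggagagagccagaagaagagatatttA
SAUR20: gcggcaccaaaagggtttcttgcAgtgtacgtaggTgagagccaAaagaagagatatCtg
SAUR22: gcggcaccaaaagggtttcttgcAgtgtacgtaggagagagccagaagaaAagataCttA
They were read from the TAIR10.1 assembly at chr5:5983906-5983965, chr5:5963180-5963239, chr5:5968587-5968646, chr5:5976096-5976155, chr5:5966455-5966514 and chr5:5974838-5974897. *SAUR19*, *SAUR20* and *SAUR22* lie on the minus strand and the other three on the plus strand. *SAUR24*, *SAUR19* and *SAUR21* were identical over the 60 bases, *SAUR23* differed from *SAUR24* at 3 positions, and *SAUR20* and *SAUR22* at 4 each. Over the whole coding sequence, pairs within this cluster were between 87.7% and 95.2% identical. The 56 genes have coding sequences of 261 to 573 bases (median 367.5), and 53 of them have no intron in it.

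A word of 50 bases that also occurs elsewhere in the genome was found in 12 of the 56 genes. The share of such words was highest in *SAUR68* (AT1G29510, 33.9%), *SAUR63* (27.1%), *SAUR62* (23.2%) and *SAUR19* (18.5%). Among genes with enough reads to test, the sharing was small. Of the 27 tested genes, 23 had only unique reads and 3 had less than 95% unique reads. These were *SAUR24* (73.4%), *SAUR30* (90.9%) and *SAUR8* (92.6%). No exact 50-base word of *SAUR30* was found elsewhere, so its non-unique reads are not accounted for by exact copies. Over all 56 genes, 99.0% to 99.3% of the reads in a library were unique, against 96.4% to 96.9% over all genes. The test on unique reads called 8 SAUR genes lower and 7 higher, against 5.53% and 6.46% of all genes tested on unique reads, and gave the same call as total reads for 27 of 27.

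Levels between genes were compared by RPKM, read counts scaled by exon length and library size, which the authors computed. In Mock, *SAUR32* was the highest, at 142 ± 24.0 RPKM (SD, n = 3 here and below), followed by *SAUR59* at 89.0 ± 18.0. The RPKM of *SAUR32* in its lowest Mock library, 126, was above that of *SAUR59* in its highest, 110. *SAUR78* (63.6 ± 15.0), *SAUR41* (59.7 ± 5.93) and *SAUR31* (52.1 ± 8.56) came next, and the ranges of neighbours in this order overlapped. *SAUR30* (34.1 ± 4.31), *SAUR36* (28.2 ± 5.71) and *SAUR71* (27.1 ± 1.45) followed, again with overlapping ranges. The lowest tested gene, *SAUR34*, was at 0.241 ± 0.237 RPKM, 588 times below *SAUR32*. Of the tested genes, 12 had at least 10 RPKM in Mock. A few SAUR transcripts were thus abundant in the stem and many were at trace levels, and every member of the *SAUR19*, *SAUR26* and *SAUR63* clusters was at or below 3.37 RPKM in Mock.

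**Figure D1:**
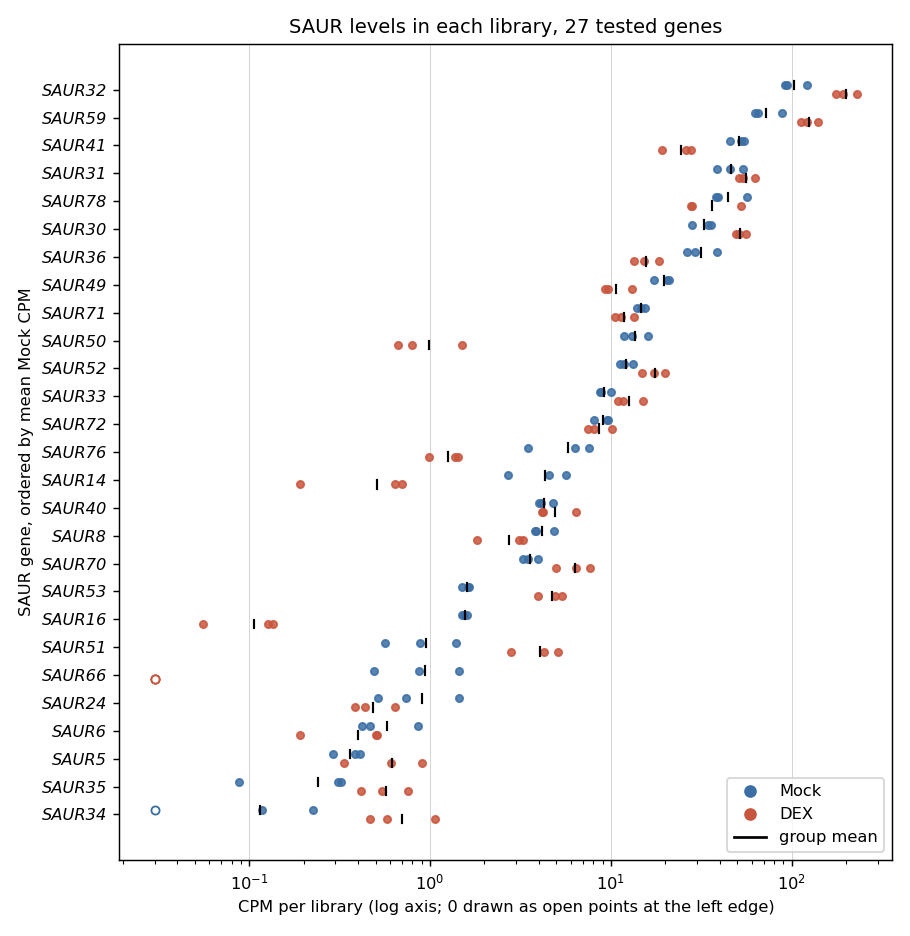
CPM in each of the 6 libraries for the 27 tested SAUR genes, on a log axis, with Mock in blue, DEX in red and the group mean as a black bar. Open points at the left stand for 0 reads. The points of SAUR50 fell from about 13.6 to 0.987 CPM on average without overlap, whereas the most abundant gene, SAUR32, moved the other way.

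In DEX, 8 SAUR genes were lower and 7 were higher than in Mock at an adjusted p below 0.05 (edgeR quasi-likelihood F test, Benjamini-Hochberg over 19598 genes). Over all tested genes 5.50% fell and 6.38% rose, against 29.6% and 25.9% of the 27 tested SAUR genes. The list was chosen with earlier results of these data known, so these shares do not describe the whole family. Annotated SAUR genes outside the list also passed the filter. Their Mock and DEX reads were 173 and 516 for *SAUR54*, 91 and 217 for *SAUR58*, and 2602 and 2934 for *SAUR74*. They were 272 and 233 for *SAUR60*, 77 and 63 for *SAUR56*, and 48 and 31 for *SAUR44*. Non-overlapping groups, all DEX libraries below or all above all Mock libraries, were found in 10 genes each, where the background was 14.3% of all tested genes below and 13.9% above. The median log2 fold change of the tested SAUR genes was -0.08, and that of all tested genes -0.01. With no filter on low counts the median over the 47 SAUR genes with reads was -0.87, beside -0.0016 over all genes. That fit took in the 20 SAUR genes with too few reads to test. The median was the value of *SAUR7*, with 4 reads in Mock and 2 in DEX. *SAUR66* and *SAUR16* passed the filter on low counts only through their Mock reads, and *SAUR34* only through its DEX reads. Of the called genes, 5 were lower by 4-fold or more and 1 was higher by as much. Without Mock library 2 the number that rose was 4, and over all genes 690 fell and 615 rose.

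**Figure D2:**
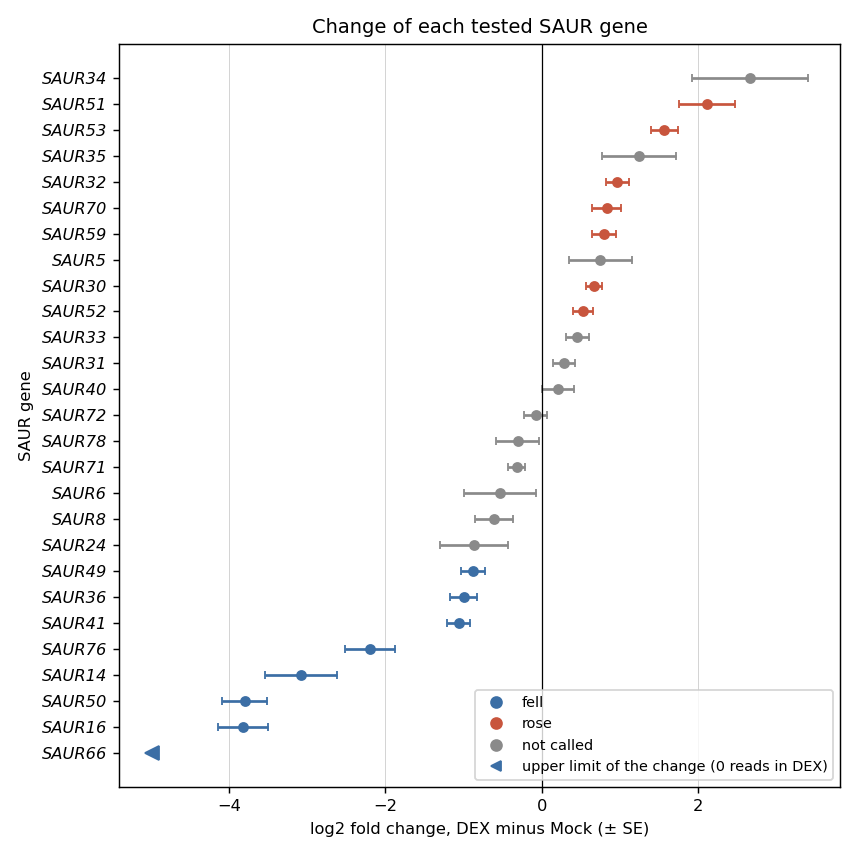
Change of each tested SAUR gene, as log2 fold change of DEX minus Mock with its standard error, with genes that fell in blue, genes that rose in red and genes not called in grey. The triangle marks the upper limit of the change of SAUR66, which had 0 reads in DEX. The falls of SAUR66, SAUR16, SAUR50 and SAUR14 lie beyond every rise that was called.

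The deepest falls were in genes of tandem arrays. *SAUR66* (AT1G29500, chromosome 1) belongs to the *SAUR63* cluster, whose members promote elongation of hypocotyls and stamen filaments. It had 27, 49 and 19 reads in Mock libraries 1, 2 and 3 and 0 in each DEX library. It was at least 31.7-fold lower in DEX, set against 3 reads over the group (adjusted p = 0.00986, edgeR). *SAUR50* (AT4G34760, chromosome 4), a light-induced gene that takes part in cotyledon opening, had 369, 445 and 620 reads in Mock and 24, 47 and 29 in DEX. These equalled 11.9, 13.1 and 16.0 CPM against 0.669, 1.502 and 0.790 CPM. The groups did not overlap, and the level was 14.0-fold lower in DEX (log2 fold change -3.80 ± 0.29 SE, adjusted p = 0.000265, edgeR).

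*SAUR16* (AT4G38860, chromosome 4), which acts with *SAUR50* in the opening of cotyledons in the light, had 50, 51 and 60 reads in Mock and 2, 4 and 5 in DEX. Its Mock libraries were close to each other, with a coefficient of variation of 3.46% in CPM, and every DEX library was far below them. The fall was 14.2-fold (-3.83 ± 0.32, adjusted p = 0.0004, edgeR). Its neighbour *SAUR14* (AT4G38840) had 176, 155 and 105 reads in Mock and 25, 20 and 7 in DEX. The third library was the lowest in both groups, and the groups did not overlap. The fall was 8.46-fold (-3.08 ± 0.46, adjusted p = 0.00505, edgeR).

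*SAUR76* (AT5G20820, chromosome 5), one of a small group whose proteins bind ethylene receptors, was at 7.59, 6.30 and 3.48 CPM in Mock and at 1.42, 1.37 and 0.981 CPM in DEX. The lowest Mock library was still above the highest DEX library, and the fall was 4.59-fold (-2.20 ± 0.32, adjusted p = 0.00464, edgeR). The remaining falls were near 2-fold. *SAUR41* (AT1G16510, chromosome 1), which promotes cell expansion, was at 45.5, 54.5 and 52.7 CPM in Mock and 19.1, 26.1 and 27.8 CPM in DEX, 2.09-fold lower (-1.06 ± 0.15, adjusted p = 0.00404). *SAUR36* (AT2G45210, chromosome 2), known as a promoter of leaf senescence, was at 29.2, 26.5 and 38.5 CPM in Mock and 18.5, 13.4 and 15.3 CPM in DEX. Mock library 3 was the high one, the groups did not overlap, and the fall was 2.00-fold (-0.997 ± 0.174, adjusted p = 0.01, edgeR). *SAUR49* (AT4G34750, chromosome 4), a neighbour of *SAUR50*, was at 17.2, 20.6 and 21.1 CPM in Mock and 9.31, 9.65 and 13.1 CPM in DEX (-0.88 ± 0.16, adjusted p = 0.0106, edgeR). Without Mock library 2 its adjusted p was 0.0505.

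The rises included the 2 most abundant SAUR transcripts of the stem. *SAUR32* (AT2G46690, chromosome 2), first described for its role in the apical hook of seedlings, was at 91.5, 93.7 and 122 CPM in Mock and at 193, 177 and 231 CPM in DEX. Every DEX library was above every Mock library, and the level was 1.95-fold higher (0.97 ± 0.15, adjusted p = 0.00597, edgeR). This single gene held 20.2% to 21.9% of all SAUR reads in the Mock libraries and 32.2% to 34.1% in the DEX libraries. *SAUR59* (AT3G60690, chromosome 3) was at 62.5, 65.2 and 88.5 CPM in Mock and 121, 112 and 141 CPM in DEX. The groups did not overlap (1.73-fold, 0.79 ± 0.15, adjusted p = 0.016), but without Mock library 2 the adjusted p was 0.0794. *SAUR30* (AT5G53590, chromosome 5) was at 28.3, 34.4 and 35.6 CPM in Mock and 49.2, 51.3 and 55.9 CPM in DEX. It was 1.59-fold higher (0.67 ± 0.11, adjusted p = 0.00723), and 0.69 on the log2 scale by unique reads alone.

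The 2 called rises of 2-fold or more, in *SAUR51* and *SAUR53*, were in genes of low level. *SAUR51* (AT1G75580, chromosome 1) had 43, 30 and 22 reads in Mock and 184, 133 and 103 in DEX. The third library was the lowest of its group in both, and the groups did not overlap (4.34-fold higher, 2.12 ± 0.36, adjusted p = 0.0089, edgeR). *SAUR53* (AT1G19840, chromosome 1) was at 1.51, 1.65 and 1.62 CPM in Mock and 4.91, 5.34 and 3.95 CPM in DEX, 2.96-fold higher (1.56 ± 0.17, adjusted p = 0.00137). *SAUR52* (AT1G75590), the neighbour of *SAUR51*, was at 11.3, 11.9 and 13.2 CPM in Mock and 17.3, 15.0 and 20.0 CPM in DEX (1.44-fold, 0.53 ± 0.13, adjusted p = 0.0395). *SAUR70* (AT5G20810, chromosome 5) was at 3.28, 3.48 and 3.97 CPM in Mock and 4.99, 6.42 and 7.66 CPM in DEX (1.78-fold, 0.83 ± 0.19, adjusted p = 0.0282). Both of the last had separate groups, but each lost its call without single libraries. For *SAUR52* this held without any library other than DEX 2 (adjusted p between 0.0587 and 0.148), and for *SAUR70* without any library other than DEX 1 (0.0512 to 0.118).

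The 12 tested genes that were not called lay between -0.87 and 2.66 on the log2 scale. *SAUR34* (AT4G22620) and *SAUR35* (AT4G12410), whose coding sequences are 75.6% identical, had few reads. *SAUR34* had 7, 4 and 0 reads in Mock and 38, 18 and 17 in DEX (2.66 ± 0.74, adjusted p = 0.062, edgeR), and *SAUR35* had 10, 3 and 12 in Mock and 27, 13 and 20 in DEX (1.24 ± 0.47, adjusted p = 0.159). All DEX libraries were above all Mock libraries in both, yet the Mock values scattered by 98.5% and 54.7% of their mean. In the SAUR41 subfamily, whose overexpression enlarges cells, *SAUR41* fell while *SAUR71* (-0.32 ± 0.11, adjusted p = 0.132), *SAUR72* (-0.08 ± 0.15, 0.82) and *SAUR40* (0.20 ± 0.20, 0.643) were not called. *SAUR71* was at 14.7, 15.5 and 14.0 CPM in Mock and 10.6, 11.4 and 13.4 CPM in DEX, and its groups did not overlap. *SAUR78* (AT1G72430), the relative of *SAUR76*, was at 38.3, 39.2 and 56.7 CPM in Mock and 27.9, 28.1 and 52.5 CPM in DEX. Library 3 was the high one in both groups, and the groups overlapped (-0.31 ± 0.28, adjusted p = 0.6). *SAUR31* (0.28 ± 0.14, adjusted p = 0.27) and *SAUR33* (0.45 ± 0.15, adjusted p = 0.106), relatives of *SAUR32*, had higher means in DEX and were not called. With the replicate number as a block, *SAUR31*, *SAUR33* and *SAUR34* were called higher and *SAUR78* lower (adjusted p from 0.0153 to 0.046, edgeR). In that fit 1722 of all genes fell and 2258 rose. *SAUR8* had lower values in all DEX libraries (-0.62 ± 0.24, adjusted p = 0.178). *SAUR5* (0.75 ± 0.41, adjusted p = 0.339), *SAUR6* (-0.54 ± 0.46, adjusted p = 0.576) and *SAUR24* (-0.87 ± 0.44, adjusted p = 0.299) had between 101 and 143 reads in all and overlapping groups.

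The 20 genes with reads that were too few to test had 256 reads in Mock and 101 in DEX in total, at an almost equal summed library size. Reads were more numerous in Mock for 18 of them and in DEX for 2, *SAUR4* (26 and 35 reads) and *SAUR9* (3 and 8). Of all 5241 genes with reads that were not tested, 46.8% had more reads in Mock. In 5 of the 20 every DEX library was below every Mock library and in 0 above, whereas this held for 5.19% and 4.29% of the 5241, whose median was 5 reads in all. *SAUR68* (AT1G29510) had 6, 12 and 7 reads in Mock and 0, 1 and 0 in DEX, 25.0 times as many in Mock with a 95% counting interval from 4.09 to 1026, and 13 of its 25 Mock reads were unique. *SAUR65* had 15, 12 and 6 reads in Mock and 0, 1 and 4 in DEX, and *SAUR1* had 6, 12 and 13 in Mock and 1, 1 and 3 in DEX. *SAUR29* of the *SAUR26* cluster, which promotes growth in warmth, had 8, 9 and 9 reads in Mock and 0, 3 and 1 in DEX. *SAUR15*, long used as the auxin-responsive gene *SAUR-AC1*, had 6, 5 and 6 reads in Mock and 1, 2 and 0 in DEX, 5.67 times as many in Mock (95% counting interval 1.64 to 30.2). With no filter on low counts, 2 of the 20 were called lower, *SAUR68* (adjusted p = 0.023, edgeR) and *SAUR1* (adjusted p = 0.0335), and 0 were called higher, where 4.30% of all genes in that fit fell and 5.20% rose.

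**Figure D3:**
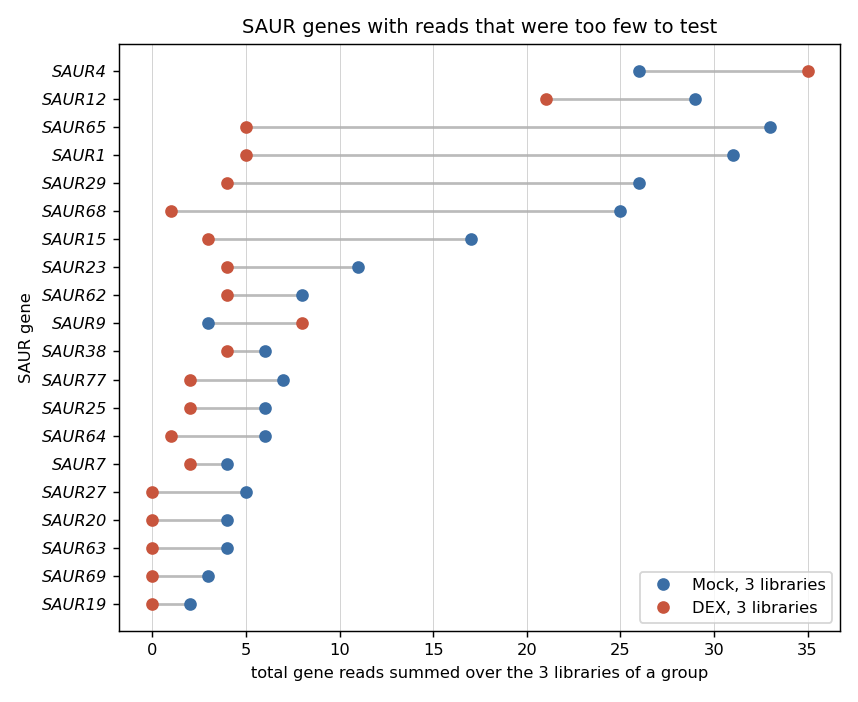
Total gene reads summed over the 3 Mock libraries (blue) and the 3 DEX libraries (red) for the 20 SAUR genes that had reads but were not tested, with a grey line joining the pair of each gene. The Mock point lies to the right in 18 of 20 genes.

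A further 5 of these genes, *SAUR19*, *SAUR20*, *SAUR27*, *SAUR63* and *SAUR69*, had between 2 and 5 reads in Mock and 0 in DEX, where no fold is given. The others, *SAUR7*, *SAUR12*, *SAUR23*, *SAUR25*, *SAUR38*, *SAUR62*, *SAUR64* and *SAUR77*, had between 4 and 29 reads in Mock and between 1 and 21 in DEX. The 9 genes without any read were *SAUR10*, *SAUR11*, *SAUR21*, *SAUR22*, *SAUR26*, *SAUR28*, *SAUR37*, *SAUR39* and *SAUR46*. Expression of these 9 was not detectable at this depth. *SAUR21* shares its printed stretch with *SAUR24*, so a read from there could have been placed on another copy. Genes that were not tested had shorter coding sequences, with a median of 315 bases, than those that fell (396), those that rose (462) and those not called (384).

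To lessen the dependence on how shared reads were divided, total reads of the members were summed over neighbouring genes and tested in the fit over all genes. Annotated SAUR genes inside these spans that are not among the 56 were not summed, namely AT1G29490 in the *SAUR63* cluster (1 read in Mock and 5 in DEX), AT4G34780 (0 and 0) and AT4G34790 (8 and 2) in the *SAUR50* cluster, and AT3G03847 (0 and 0) in the *SAUR26* cluster. The *SAUR14* cluster (*SAUR14*, *SAUR15* and *SAUR16*, chromosome 4, 18124978 to 18131284) was at 7.46, 6.21 and 4.40 CPM in Mock and 0.781, 0.831 and 0.327 CPM in DEX. It fell as a whole (-3.22 ± 0.35, adjusted p = 0.00136, edgeR), and each of its members had separate groups. This sum was carried by *SAUR14* and *SAUR16*, both called above, with 436 and 161 of the 614 Mock reads, while *SAUR15* was not tested. None of these genes had a 50-base word that occurs elsewhere, so shared reads had no bearing here. The *SAUR63* cluster (6 members, chromosome 1, 10302585 to 10323239) had 58, 77 and 36 reads in Mock and 0, 7 and 4 in DEX. Its fall (-3.93 ± 0.70, adjusted p = 0.0107) included *SAUR66*, which held 95 of the 171 Mock reads, and the sum passed the filter on low counts only through Mock. The *SAUR50* cluster (5 members, chromosome 4, 16577180 to 16599568) averaged 34.2 ± 4.13 CPM in Mock against 12.7 ± 2.31 in DEX (-1.43 ± 0.15, adjusted p = 0.00127). This sum was carried by *SAUR49* and *SAUR50*. *SAUR4*, which was not tested, and *SAUR5*, which was not called, had more reads in DEX.

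The *SAUR51* pair (*SAUR51* and *SAUR52*, chromosome 1) rose from 13.1 ± 0.601 to 21.5 ± 2.00 CPM (0.72 ± 0.10, adjusted p = 0.00373). The *SAUR76* pair (*SAUR76* and *SAUR70*, chromosome 5, 7043758 to 7047446) averaged 9.37 ± 1.75 CPM in Mock against 7.62 ± 1.12 in DEX (adjusted p = 0.392), since its members moved in opposite directions. The *SAUR19* cluster had 31, 55 and 23 reads in Mock and 24, 15 and 16 in DEX, and the groups overlapped (-1.004 ± 0.409, adjusted p = 0.192). The *SAUR6* cluster was not called either (adjusted p = 0.476). The *SAUR26* cluster had 31 reads in Mock and 4 in DEX and was not tested. Summed unique reads gave the same 3 falls and 1 rise, and each of these sums held members already called singly. In the fit of single genes by total reads, 5.50% of all tested genes fell and 6.38% rose. The sums of the *SAUR14* and *SAUR50* clusters and of the *SAUR51* pair held unique reads only. Among the called sums, only that of the *SAUR63* cluster (91.2% unique) could therefore have differed.

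**Figure D4:**
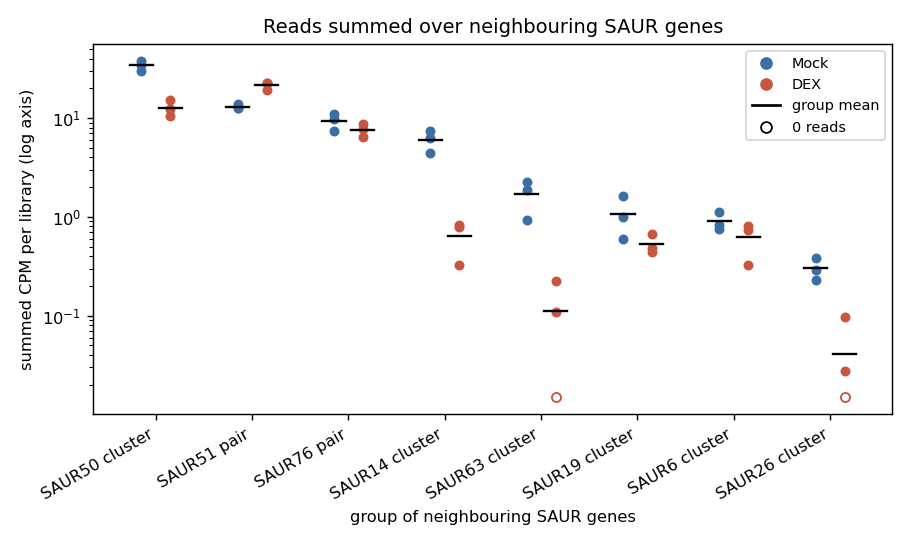
CPM summed over each group of neighbouring SAUR genes in each library, on a log axis, with Mock in blue, DEX in red, the group mean as a black bar and open points for 0 reads. The SAUR14, SAUR63 and SAUR50 clusters are lower in all DEX libraries, the SAUR51 pair is higher in all, and the SAUR19 cluster overlaps.

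Close relatives did not always move alike. The stretches below are from *SAUR50*, its 2 closest relatives *SAUR8* and *SAUR16*, and the more distant *SAUR51*, and are shown because *SAUR50* and *SAUR16* fell, *SAUR51* rose and *SAUR8* was not called. Capitals mark coding bases that differ from *SAUR50*.
SAUR50: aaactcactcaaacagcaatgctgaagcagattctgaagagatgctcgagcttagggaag
SAUR8: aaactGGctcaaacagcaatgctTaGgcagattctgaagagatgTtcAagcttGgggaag
SAUR16: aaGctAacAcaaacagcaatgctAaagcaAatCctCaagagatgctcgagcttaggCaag
SAUR51: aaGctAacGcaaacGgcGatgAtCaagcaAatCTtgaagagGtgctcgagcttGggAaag
They lie at chr4:16582711-16582770 and chr2:7186845-7186904 on the minus strand and at chr4:18130378-18130437 and chr1:28377551-28377610 on the plus strand of TAIR10.1. In this stretch *SAUR8* differed from *SAUR50* at 7 of 60 bases, *SAUR16* at 8 and *SAUR51* at 13. Over the whole coding sequence *SAUR50* was 82.3% identical to *SAUR8*, 77.2% to *SAUR16*, 75.9% to *SAUR12* and 73.7% to *SAUR51*. *SAUR36*, which fell, and *SAUR59*, which rose, were each other's closest relatives among the 56 genes (70.0%). *SAUR52* and *SAUR53* (81.9%) both rose. *SAUR16* and *SAUR12* (85.5%) differed in level, with 161 and 29 reads in Mock, and *SAUR12* had 21 reads in DEX. Differences in response between relatives were not tested as such.

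Sequences upstream of the genes were searched for TGTCTC and TGTCGG, the core sequences bound by ARFs, and for CACGTG, the G-box bound by PIF and other factors, on both strands within 300 bases before the annotated start. TGTCTC was found in 7 of the 56 genes (12.5%) and in 13.0% of 27443 such windows in the genome. The values were 2 genes (3.57%) and 4.91% for TGTCGG, and 1 gene (1.79%) and 7.09% for CACGTG. Of the 15 called genes, *SAUR66* alone held TGTCTC and *SAUR59* alone held CACGTG. In the *SAUR63* cluster, *SAUR62*, *SAUR66* and *SAUR68* held TGTCTC and *SAUR63* held TGTCGG. Some windows reach into other genes. That of *SAUR7*, with 4 TGTCTC matches, lies inside its neighbour *SAUR6*, and that of *SAUR63* overlaps AT1G29435. The bases from 180 to 61 before the start are shown for *SAUR66*, *SAUR68*, *SAUR62* and *SAUR59*, since they bear matches in genes described above, and capitals mark the matches.
SAUR66: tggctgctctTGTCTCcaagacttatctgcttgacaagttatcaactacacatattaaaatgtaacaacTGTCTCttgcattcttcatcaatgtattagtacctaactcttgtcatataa
SAUR68: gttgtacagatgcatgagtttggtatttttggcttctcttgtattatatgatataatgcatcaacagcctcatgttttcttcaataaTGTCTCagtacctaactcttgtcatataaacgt
SAUR62: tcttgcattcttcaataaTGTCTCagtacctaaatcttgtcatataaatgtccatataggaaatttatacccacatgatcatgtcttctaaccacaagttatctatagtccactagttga
SAUR59: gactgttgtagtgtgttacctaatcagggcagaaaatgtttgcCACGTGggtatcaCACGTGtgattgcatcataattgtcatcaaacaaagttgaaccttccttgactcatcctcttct
They lie at chr1:10320831-10320950, chr1:10322243-10322362 and chr1:10303479-10303598 (minus strand for the last), and at chr3:22434684-22434803, and come from RefSeq's annotation of TAIR10.1. *SAUR66* held TGTCTC at 170 and 111 bases before the start, *SAUR68* at 93 and *SAUR62* at 162, and *SAUR59* held CACGTG at 137 and 124. Around the match *SAUR62* and *SAUR68* shared a run of 26 bases. A match is a description of the sequence and does not show that a factor binds there.

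Summed over all 56 genes, SAUR reads came to 450, 465 and 557 CPM in Mock libraries 1, 2 and 3 and to 565, 549 and 685 CPM in DEX libraries 1, 2 and 3. The means were 490 ± 57.8 and 600 ± 74.6 CPM (SD, n = 3 each), a ratio of 1.22, and the groups overlapped. The 8 genes that fell summed to 128 ± 8.47 CPM in Mock and 53.6 ± 4.35 CPM in DEX, and the 7 that rose to 225 ± 35.0 and 410 ± 46.6 CPM, values that follow from how these genes were chosen. The number of SAUR genes with a read was between 42 and 46 in the Mock libraries and between 33 and 40 in the DEX libraries. Genes of 2 to 4 reads in all, such as *SAUR19*, *SAUR69* and *SAUR63*, entered this number. The same number over all genes is not given here, so a general difference in detected genes cannot be told apart. The 6 genes highest in Mock by RPKM took 71.0% ± 2.24 of the summed CPM in Mock and 82.2% ± 0.855 in DEX.

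**Figure D5:**
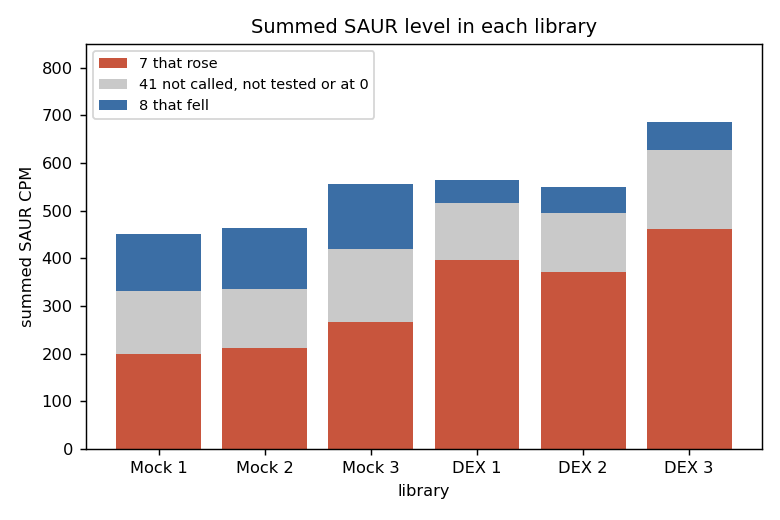
Summed CPM of the 56 SAUR genes in each library, as stacked bars from 0, with the 7 genes that rose in red, the 8 that fell in blue and the other 41 in grey. The totals range from 450 to 685 CPM, and the blue part is smaller in every DEX library than in every Mock library.

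The partners and regulators of SAUR proteins were read from the same fit. Of 9 PP2C.D phosphatases, the targets of SAUR inhibition, 9 were tested, 1 fell and 0 rose, beside 5.50% and 6.38% of all tested genes. The one that fell, AT5G02760, was at 1.09, 1.27 and 0.927 CPM in Mock and 0.167, 0.128 and 0.164 CPM in DEX (-2.80 ± 0.29, adjusted p = 0.0011, edgeR), and only AT5G66080 of this list had a lower Mock level. It passed the filter on low counts only through its Mock reads. The other tested members lay between -0.25 and 0.52 on the log2 scale. Of 11 H+-ATPases of the plasma membrane, 9 were tested and 0 were called in the edgeR fit without a block. At an unadjusted p below 0.05 in that fit, 2 pumps were higher and 0 lower, and 2 phosphatases were higher and 2 lower. Of the transcription factors described below, 1 was higher and 5 were lower at that threshold. The share of all genes at that threshold is not given here, so no direction is read from these counts. *AHA1* was called by DESeq2 (adjusted p = 0.00205), where 1292 of all genes fell and 1696 rose. With the replicate number as a block, edgeR also called *AHA1* (adjusted p = 0.0283), where 1722 of all genes fell and 2258 rose. The most abundant, *AHA1* (AT2G18960), was at 580, 621 and 682 CPM in Mock and 800, 859 and 793 CPM in DEX, with separate groups (0.38 ± 0.10, adjusted p = 0.0597).

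Of 9 transcription factors that bind SAUR promoters, 9 were tested, 3 fell and 1 rose, beside 5.50% and 6.38% of all tested genes. *ARF19*, an activating ARF, was at 29.9, 36.0 and 35.6 CPM in Mock and 16.6, 15.9 and 16.3 CPM in DEX (-1.06 ± 0.10, adjusted p = 0.00063, edgeR). *PIF5* (*PIL6*), a light-labile growth factor, was at 38.1, 42.7 and 57.6 CPM in Mock and 10.6, 12.2 and 15.5 CPM in DEX (-1.85 ± 0.20, adjusted p = 0.00116). *BES1*, an effector of brassinosteroid, was at 56.5, 48.1 and 42.6 CPM in Mock and 29.1, 31.0 and 27.5 CPM in DEX (-0.75 ± 0.12, adjusted p = 0.00613). *PIF4*, which shares targets with *PIF5*, was at 42.1, 44.0 and 37.6 CPM in Mock and 77.1, 73.9 and 68.9 CPM in DEX (0.83 ± 0.09, adjusted p = 0.00122). None of these 4, picked by their call, had overlapping groups. *ARF6*, *NPH4* and *BZR1* were also lower in every DEX library, without a call (adjusted p = 0.189, 0.231 and 0.0947, edgeR). Over all tested genes, 14.3% had all DEX libraries below all Mock libraries and 13.9% above.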

How the data were processed

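Total gene reads of 6 libraries (3 Mock, 3 DEX) were analysed. The authors mapped single-end reads with CLC Genomics Workbench, using TAIR10, and deposited, per gene, counts (total and unique gene reads, exon and intron reads), the exon length in bases (another column of the deposited tables) and RPKM values. The library kit marked the strand, but no source used here says if the counts are stranded, so reads of *SAUR8*, *SAUR31*, *SAUR63*, *SAUR64* and *SAUR7*, which overlap genes on the other strand, and of *SAUR6* and *SAUR7*, which overlap each other, may be mixed. Of 33323 entries, 5 had no gene name (0.093% to 0.135% of reads) and were left out, and 2 repeated identifiers were summed. Genes were kept with filterByExpr (19598 kept, 13718 removed with 0.0298% of reads), scaled by TMM, and compared in edgeR 4.0.16 (R 4.3.3) by its quasi-likelihood F test, two-sided and called at an adjusted p below 0.05. The standard error is the log2 fold change divided by the square root of F. The scripts were tested on simulated data. Replicates were not duplicates, with a chi-square per degree of freedom from 23.3 to 72.1. Alternatives were other scalings, filters, read columns, DESeq2 1.42.0, limma-voom 3.58.1, a replicate block and leaving out each library. The deposited tables hold no coordinates, and positions and sequences come from TAIR10.1, in which 56 of 56 genes were found by locus tag. All 56 genes are accounted for, called ones by name with values. Of the phosphatases, pumps and transcription factors, called genes are named, or the most abundant where none was called. The genes and lists were chosen with earlier results of these data known.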

Additional observations from a re-analysis of the deposited data

How the results depend on the processing

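Of the 15 called SAUR genes, 11 kept their call and direction under every alternative in which they were tested, and 4 (*SAUR49*, *SAUR52*, *SAUR59* and *SAUR70*) lost it under at least 1, always in the same direction. *SAUR52* was also lost with upper-quartile factors (adjusted p = 0.0546, edgeR) and with library totals (adjusted p = 0.0613). Of the 12 uncalled genes, 5 were called under at least 1 alternative. The edgeR fit with a replicate block called *SAUR31*, *SAUR33*, *SAUR34* and *SAUR78* (adjusted p = 0.046, 0.0191, 0.0153 and 0.0386). *SAUR71* was called without DEX library 3 (adjusted p = 0.0443, edgeR). *SAUR34* was also called with DESeq2 (adjusted p = 0.0128). *AHA1* was called with DESeq2 (adjusted p = 0.00205) and with the block (adjusted p = 0.0283, edgeR). With DESeq2, 1292 of all genes fell and 1696 rose. With no filter on low counts, 47 SAUR genes were tested and their median log2 fold change was -0.87, since the genes of low count then entered. Leaving out 1 library in turn gave 7 to 10 SAUR genes that fell and 4 to 6 that rose, and over all genes 690 to 1000 that fell and 615 to 1198 that rose, each lowest without Mock library 2. Same-numbered libraries deviated together from their group mean for numbers 1 (r = 0.59) and 3 (r = 0.58) but not 2 (r = 0.07). Mock 2 correlated no better with its own number. Crossed numbers deviated oppositely for Mock 1 with DEX 3 (r = -0.61) and Mock 3 with DEX 1 (r = -0.52). Deviations from a group mean cancel within the group, so these negative values follow in part from the positive ones and add no separate evidence. On principal component 2, an axis of variation between libraries (21.3%), libraries 1, 2 and 3 came in the same order in both groups. The values were 21.6, -1.31 and -19.7 in Mock and 21.2, 6.77 and -28.6 in DEX. The labels name no batch, the main fit had no block, and a shared batch was not tested. With the replicate number as a block, 9 SAUR genes fell and 10 rose, and over all genes 1722 fell and 2258 rose. *BDL* changed sign, without a call, under limma-voom (0.0015) and when libraries were left out (-0.26 to 0.20). The same held for *SAUR72* (-0.22 to 0.0097) and *SAUR40* (-0.0353 to 0.32). The causes were not tested. Depth limits the 29 genes that were not tested.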
